A study of Mus musculus with 161 samples.

Results

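Line EN215.1 carries a CTCF transgene from which amino acids 90 to 178 were removed, ΔN(90–178), and contributed 2 chromosome-conformation capture carbon copy (5C) libraries of the 91 in the series. They were chosen by cell line and treatment from the labels and were compared with the 14 libraries of line EN133.10, which carries the full-length transgene and received the same treatment. All cells were male mouse embryonic stem cells (E14Tg2a background) in which endogenous CTCF was fused to the auxin-inducible degron (CTCF-AID) and the plant F-box protein Tir1 was expressed. The transgene, a 3xFLAG–CTCF–mRuby2 cDNA under the doxycycline-inducible TetO promoter together with the Rtta3G activator, was inserted at the Tigre locus. Both groups received auxin, which degrades the endogenous protein, and doxycycline (dox) for 4 days, so that the remaining CTCF was that of the transgene. Each line is a single clone, and EN133.10 is the full-length clone with the higher expression. The labels of the deletion line read 89-178 without the word Del, and the name ΔN(90–178) follows the study. 5C does not read the transgene, so neither the deletion nor the amount of transgenic protein could be checked in these files. The labels do not say whether libraries with different replicate numbers came from separate cultures, and p-values measure the spread between libraries.

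CTCF is a zinc-finger protein that binds DNA at a directional motif and halts cohesin, the ring-shaped complex that extrudes chromatin loops. Sites occupied by CTCF therefore mark the boundaries of topologically associating domains (TADs), across which contacts are depleted. The central zinc-finger array contacts DNA, and the N terminus faces the cohesin that it retains. In mouse embryonic stem cells, the region around Xist and its antisense gene Tsix on chromosome X is a well-studied case of such a boundary, which separates the promoters of both genes into different domains.

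The stretch that was removed comprises 89 of 736 codons (12.1%) and lies within exon 3 of the 12 exons of the GENCODE transcript of Ctcf, at chr8:108187930-108188196 on the plus strand (mm9). Of its 89 residues, 15 are acidic (16.85%, against 16.17% over the whole protein), 2 are lysine or arginine and 1 is a cysteine. It ends before the zinc fingers, which the transgene keeps. The 267 bases of these codons are shown because they are the only difference in design between both transgenes, in capitals between 15 retained bases on either side.
Ctcf codons 90 to 178: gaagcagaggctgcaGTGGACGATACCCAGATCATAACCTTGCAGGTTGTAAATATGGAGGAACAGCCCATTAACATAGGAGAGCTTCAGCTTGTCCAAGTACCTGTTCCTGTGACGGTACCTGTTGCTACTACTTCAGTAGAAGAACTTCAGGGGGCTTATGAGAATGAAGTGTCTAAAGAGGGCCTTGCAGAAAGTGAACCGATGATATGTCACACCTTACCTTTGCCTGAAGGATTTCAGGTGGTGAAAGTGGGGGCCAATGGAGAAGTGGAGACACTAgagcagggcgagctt

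The deposited list of FLAG–CTCF peaks from the full-length line holds 78 peaks of 200 bases in the 5C region. The CTCF core motif CCANNAGNNGGC, searched on both strands as itself or as its reverse complement GCCNNCTNNTGG, occurred in 31 of them (39.7%), against 1.39% of the 23000 windows of 200 bases that tile the region. It was on the plus strand only in 18 peaks and on the minus strand only in 13. The 8 peaks below are all those that carry a motif in the bins of boundaries 4, 5 and 6 or within 2 bins of them, and are shown because the comparison turns on these boundaries. Around boundary 4 there are 2 on each strand, near boundary 5 there is 1 on the minus strand, and around boundary 6 there are 1 on the minus and 2 on the plus strand. Capitals mark the motif, and all are plus-strand sequence of mm9. Genes with names that start with a digit or with Gm and a number, among others, were left out. No annotated gene therefore means none of those kept.
Boundary 4, chrX:100639186-100639385, in Tsix, motif on the minus strand: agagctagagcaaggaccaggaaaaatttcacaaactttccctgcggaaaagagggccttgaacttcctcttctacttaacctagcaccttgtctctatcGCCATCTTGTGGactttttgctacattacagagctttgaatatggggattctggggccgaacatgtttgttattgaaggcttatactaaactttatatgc
Boundary 4, chrX:100649485-100649684, in Tsix, motif on the minus strand: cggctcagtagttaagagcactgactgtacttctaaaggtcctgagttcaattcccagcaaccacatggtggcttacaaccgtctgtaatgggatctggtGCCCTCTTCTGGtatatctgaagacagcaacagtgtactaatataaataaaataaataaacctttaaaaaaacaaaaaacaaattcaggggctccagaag
Boundary 4, chrX:100676984-100677183, in Xist and Tsix, motif on the plus strand: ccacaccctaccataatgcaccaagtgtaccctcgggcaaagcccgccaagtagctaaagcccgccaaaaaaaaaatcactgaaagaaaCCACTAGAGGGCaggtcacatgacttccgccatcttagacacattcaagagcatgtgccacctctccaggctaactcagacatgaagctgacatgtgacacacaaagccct
Boundary 4, chrX:100679482-100679681, in Tsix, motif on the plus strand: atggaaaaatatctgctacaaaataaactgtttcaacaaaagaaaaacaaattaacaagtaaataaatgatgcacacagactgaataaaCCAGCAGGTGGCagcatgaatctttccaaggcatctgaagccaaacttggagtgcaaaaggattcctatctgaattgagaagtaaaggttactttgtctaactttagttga
Boundary 5, chrX:101185864-101186063, in no annotated gene, motif on the minus strand: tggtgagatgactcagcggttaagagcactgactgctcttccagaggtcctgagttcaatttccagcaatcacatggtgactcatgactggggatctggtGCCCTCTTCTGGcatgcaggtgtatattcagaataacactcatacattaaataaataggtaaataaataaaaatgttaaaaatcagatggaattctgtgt
Boundary 6, chrX:103208673-103208872, in no annotated gene, motif on the minus strand: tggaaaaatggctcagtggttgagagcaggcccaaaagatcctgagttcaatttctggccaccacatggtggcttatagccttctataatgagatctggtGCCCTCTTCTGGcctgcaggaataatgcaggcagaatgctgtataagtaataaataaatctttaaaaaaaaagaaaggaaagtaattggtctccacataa
Boundary 6, chrX:103214234-103214433, in Cox7b, motif on the plus strand: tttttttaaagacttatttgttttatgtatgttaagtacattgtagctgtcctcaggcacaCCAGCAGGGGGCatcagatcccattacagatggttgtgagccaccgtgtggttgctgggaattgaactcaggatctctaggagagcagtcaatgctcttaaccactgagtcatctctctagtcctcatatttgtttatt
Boundary 6, chrX:103221845-103222044, in no annotated gene, motif on the plus strand: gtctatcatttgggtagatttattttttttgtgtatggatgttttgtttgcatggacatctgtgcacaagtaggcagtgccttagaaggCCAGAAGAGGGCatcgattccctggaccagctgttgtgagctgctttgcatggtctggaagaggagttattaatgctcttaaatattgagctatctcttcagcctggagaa

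The ΔN(90–178) libraries held 15232740 and 11608835 counts of ligation products, and the 12 full-length libraries with a complete count matrix ranged from 5262254 to 23096139. Full-length libraries EN5C363 and EN5C364 stood apart from the others by their signal at long distance, as described with the decay of contacts. Full-length replicates 2 and 3 (EN5C160 and EN5C161) share a run of library numbers, EN5C150 to EN5C161, with both deletion libraries (EN5C153 and EN5C158), and values within this run are given beside those over all libraries.

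To ask whether amino acids 90 to 178 are needed for insulation, the score was read at 6 boundary bins of 20 kb. The insulation score averages the contacts in a 100-kb square that spans a bin, divides by the mean of all bins and takes the negative log2, so that a higher score means fewer contacts across. Averaged over the 6 boundaries, it was 0.546 and 0.569 in the ΔN(90–178) libraries. Across full-length libraries it ranged from 0.542 to 0.708, with a median of 0.603. Of the 14 full-length libraries, 13 lay above both deletion libraries and 1 below both. The mean of the deletion line was 0.918 of the full-length mean (0.558 ± 0.0157 against 0.607 ± 0.0397, SD, n = 2 and 14), a difference that did not exceed the spread between libraries (exact permutation p = 0.0667, two-sided). The smallest p that 2 against 14 libraries allow is 0.0167. Adjusted over the 23 single values that summarise a map, p was 0.383. Both full-length libraries of the same run, at 0.588 and 0.595, were above both deletion libraries. A comparison of 2 against 2 cannot reach a p under 0.333.

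The boundaries did not behave alike. Boundary 4 (chrX:100671149-100691148, mm9) holds the Xist promoter, Xist being the noncoding RNA that silences the X chromosome, and was the most insulated of the 6. Its score was 1.33 and 1.39 in the deletion line, against 1.15 to 1.68 (median 1.36) in full-length cells, which overlap fully. Boundary 2 (chrX:99411149-99431148), 11.6 kb from Cited1, which encodes a transcriptional coactivator, scored 0.60 in both deletion libraries and 0.55 to 0.85 (median 0.66) in the full-length line. Boundary 3 (chrX:100451149-100471148), 45.6 kb from the homeobox gene Cdx4, scored 0.26 and 0.38, against 0.30 to 0.44 (median 0.39). The deletion libraries differed from each other there by nearly the whole range of the full-length line. Boundary 1 (chrX:99151149-99171148, within Nhsl2) was not insulated in either line, with scores of −0.12 and −0.19 against −0.26 to −0.09 (median −0.19).

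Boundaries 5 and 6 were those at which both deletion libraries fell outside the full-length range. Boundary 5 (chrX:101211149-101231148) lies in none of the annotated genes kept, 34.5 kb from Rlim, whose product is a ubiquitin ligase that activates Xist. There the score was 0.62 and 0.63, below each of the 14 full-length libraries (0.63 to 0.79, median 0.71). Boundary 6 (chrX:103211149-103231148) overlaps Atp7a, a copper transporter, and Cox7b, a subunit of cytochrome c oxidase. Its score was 0.59 and 0.60, against 0.60 to 0.91 (median 0.68) in full-length cells. The differences were −0.09 ± 0.04 (SE) and −0.10 ± 0.06, with an exact permutation p of 0.0167 for each, the smallest possible. In the limma fit over all 193 scored bins, neither passed (adjusted p = 0.280 and 0.328), and this fit called 0 of the 193 bins (0%). Of all scored bins, 16 (8.29%) had both deletion libraries outside the full-length range, 9 below and 7 above, against 2 of the 6 boundaries.

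**Figure D1:**
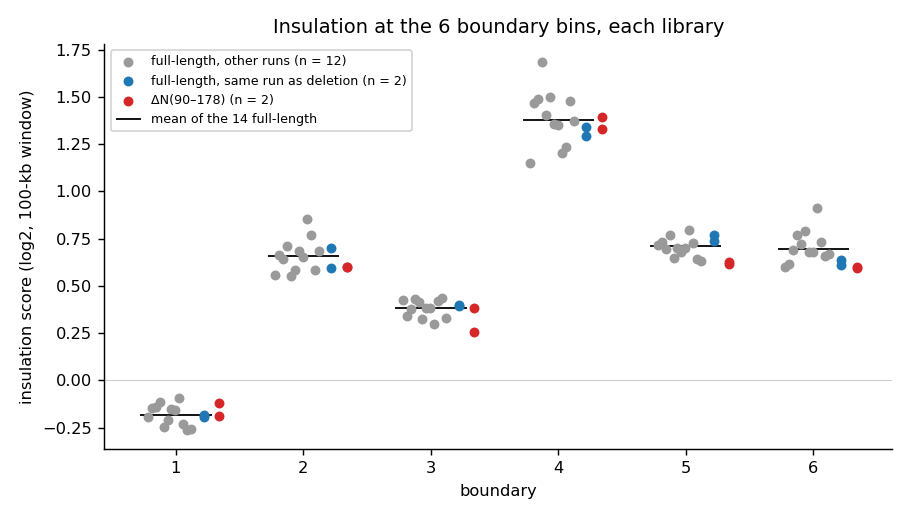
Insulation score (log2 scale, vertical axis) at the 6 boundary bins (horizontal axis), with 1 point for each library and a line at the mean of the 14 full-length libraries. Both ΔN(90–178) libraries lie within the full-length points at boundary 4 (1.33 and 1.39) and below all of them at boundaries 5 (0.62 and 0.63) and 6 (0.59 and 0.60).

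Within the run of library numbers, boundaries 5 and 6 parted. At boundary 5 the full-length libraries of the run scored 0.77 and 0.74, and the deletion line was lower by a difference of −0.13, which passed in a limma fit on these 4 libraries (adjusted p = 0.0340 over 193 bins). At boundary 6 they scored 0.61 and 0.64, close above the deletion libraries, with a difference of −0.03 (adjusted p = 0.605 in the same limma fit). The fit on these 4 libraries was chosen after the data had been seen. It called 13 of the 193 bins, 5 higher and 8 lower in the deletion line, where the fit over all libraries called 0. It reuses libraries that had already set boundary 5 apart and is not independent support. When all 69 libraries of transgene lines shared 1 estimate of the spread, boundary 5 passed (adjusted p = 0.0485 with limma) and boundary 6 did not (adjusted p = 0.135).

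In both ΔN(90–178) libraries, contacts that cross boundary 5 were higher than in all 14 full-length libraries, without passing after adjustment. They were measured as log2 of the observed signal over that expected from the same library at the same distance, for pairs up to 1000 kb apart that span boundary 5 and no other. The values were −0.49 and −0.48 in the deletion line and −0.74 to −0.53 (median −0.63) in the full-length line, so that all 14 full-length libraries were lower. The difference of 0.13 on the log2 scale, 1.10-fold, reached the lowest exact permutation p of this design, 0.0167, which became 0.256 when adjusted for the 23 values. Within the run, the full-length values were −0.62 and −0.64, and the difference was 0.15.

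The excess was not limited to short distances. From 40 to 250 kb apart, crossing contacts were at −0.55 and −0.53, with a full-length range of −0.74 to −0.54. From 250 to 500 kb they were at −0.62 and −0.58, against −0.96 to −0.62, and from 500 to 1000 kb at −0.38 and −0.39, against −0.61 to −0.46. In the nearest and the middle class 13 of 14 full-length libraries were below both deletion libraries, and in the farthest class all 14. Of the 887 bin pairs that cross boundary 5 alone, 74.2% had a higher mean in the deletion line, against 56.4% of all 7782 bin pairs tested, and the median difference was 0.17 against 0.04 on the log2 scale. These bin pairs share fragments and libraries and are not replicates. Of the crossing pairs, 626 were 500 to 1000 kb apart, and the pairs compared were not matched by distance. The median over all pairs also moved with the libraries used. It was 0.01 without full-length libraries EN5C363 and EN5C364, and −0.03 within the run.

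No FLAG peak lay in the bin of boundary 5 or in the bins beside it. The closest peaks were 3 in the bin 40 kb upstream, 1 of which carries the minus-strand motif shown above. The bins around the boundary shared its lower score. In the fit that takes the spread from all transgene libraries, 11 of 193 bins (5.7%) passed, 6 lower and 5 higher in ΔN(90–178), and 4 of the 6 lower ones form an unbroken stretch, chrX:101191149-101271148. The bin before boundary 5 differed by −0.12, and those after it by −0.11 and −0.13 (adjusted p = 0.0443, 0.0219 and 0.0193 with limma and the shared spread). Windows of neighbouring bins overlap, so these bins are not independent of each other.

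The full-length clone with low expression, EN133.6, gave values at boundary 5 similar to those of the deletion line. Its 2 libraries scored 0.589 ± 0.00485 (SD) for insulation, with crossing contacts at −0.474 and −0.468, against a deletion mean of 0.622 ± 0.00653 and −0.482. Cells of the full-length line EN133.10 with auxin and without dox, in which the transgene was not induced, had an insulation of 0.358 ± 0.0334 (SD, n = 2). Expression of the transgene was not analysed here, and its part in the difference at boundary 5 was not tested.

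Across the profile, both lines followed each other closely. Pearson's r over the 193 scored bins, given as a description since bins are not replicates, was 0.991 between the mean profiles. Between single libraries of both lines it had a median of 0.981 over 28 pairs, and between 2 full-length libraries a median of 0.981 over 91 pairs. Within the run of library numbers, r was higher inside a line than between lines. It was 0.989 between both full-length libraries and 0.992 between both deletion libraries. Between a deletion and a full-length library of the run it was 0.981 to 0.982. The median absolute difference over bins was 0.05, and 90% of bins differed by at most 0.10, where the full-length libraries themselves had a median SD of 0.06. Without adjustment, 33 bins had a p under the threshold of 0.05, 15 higher and 18 lower in the deletion line.

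**Figure D2:**
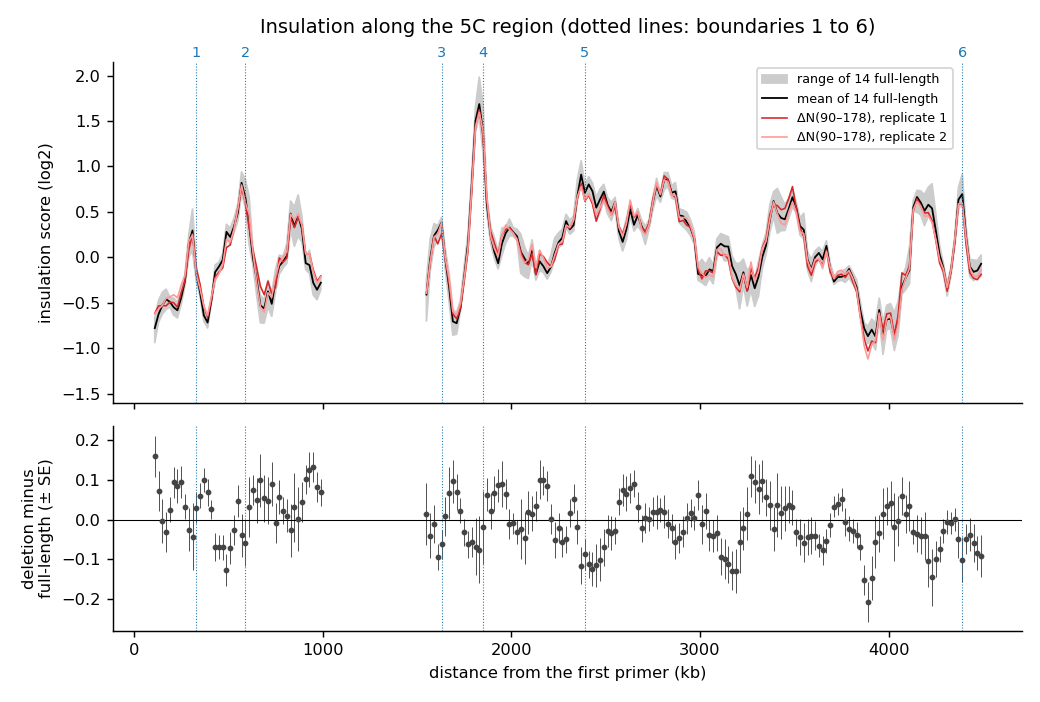
Insulation score along the 5C region in kb from the first primer, for both ΔN(90–178) libraries, the full-length mean and the full-length range (top), and the difference of means with its SE from limma (bottom), with dotted lines at the 6 boundaries. The lines stay close throughout, the largest difference is −0.21, in the bin 15.2 kb from Cypt2-ps, and the points around boundary 5 lie below 0.

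As no bin passed, the 3 with the smallest p are given as values only. The first, chrX:102711149-102731148, lies 15.2 kb from the pseudogene Cypt2-ps, deep within a domain. Insulation was −1.03 and −1.12 there, below all full-length libraries (−0.95 to −0.76, median −0.89), a difference of −0.21 ± 0.05 (SE, adjusted p = 0.0707 with limma). The second is the bin before it, chrX:102691149-102711148, with −0.89 and −0.97 against −0.84 to −0.72 (median −0.79). A lower score in this stretch, 80 to 100 kb from the nearest peak, means that contacts across already poorly insulated bins were more frequent still. The last, chrX:99771149-99791148, lies in Phka1, which encodes a subunit of phosphorylase kinase, 80 kb from the nearest peak. It moved the other way, with −0.14 and −0.16 above all full-length libraries (−0.42 to −0.20, median −0.27). These bins passed when the spread was shared over all transgene libraries (adjusted p = 0.00960, 0.0443 and 0.0193 with limma) and not within the run (adjusted p = 0.175, 0.218 and 0.0887).

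For single contacts, limma called 0 of 7782 bin pairs between 40 and 1000 kb apart (0%), on log2 of the relative signal plus 0.1. Relative signal is the binned value divided by the mean of its library. Without adjustment, 493 pairs had a p under 0.05, of which 239 were higher in the deletion line. Both deletion libraries were outside the full-length range in 2.61% of pairs, above it in 129 and below it in 74. Among the 887 pairs across boundary 5 alone, 31 were above (3.49%, against 1.66% of all pairs) and 3 were below.

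**Figure D3:**
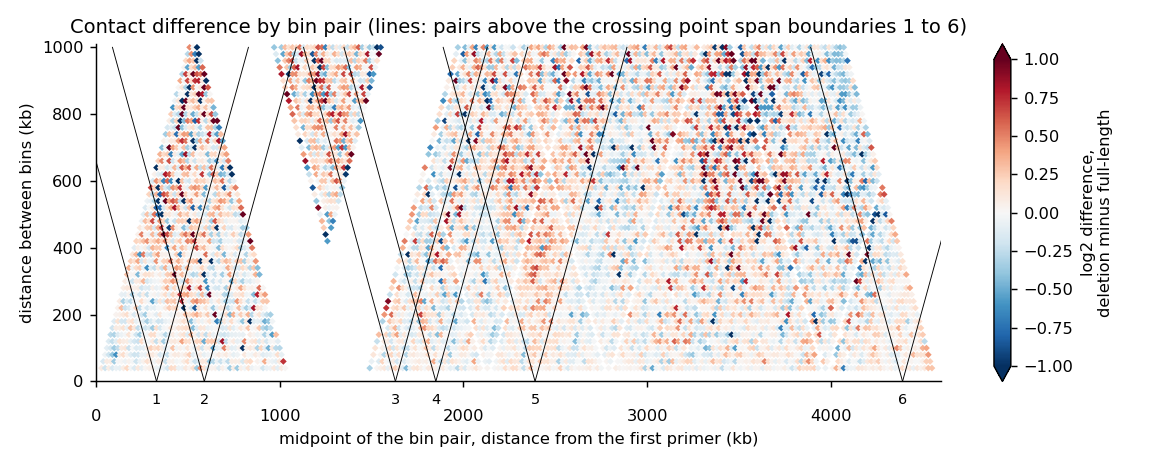
Difference of log2 contacts between ΔN(90–178) and full-length cells for 7782 bin pairs, placed by their midpoint in kb from the first primer and by the distance between bins, with red for more contacts in the deletion line. Pairs between the lines that rise from a boundary number span that boundary, and those above boundary 5 are mostly red (74.2% above 0), amid scattered single pairs of either colour.

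The 3 bin pairs with the smallest p all had fewer contacts in the deletion line and are likewise given as values. The first joins the bin before boundary 5 with chrX:101871149-101891148, 680 kb away, and had a relative signal of 0.117 and 0.425 in the deletion line against 0.618 to 1.31 (median 0.908). Its log2 difference was −1.58 ± 0.26 (SE, adjusted p = 0.101 with limma), opposite to the majority of contacts across this boundary. The second joins chrX:99271149-99291148 in Nhsl2 with chrX:99631149-99651148 in Hdac8, the gene of a histone deacetylase that acts on cohesin, 360 kb apart. Its relative signal was 0.860 and 0.579, against 1.16 to 1.93 (median 1.56). The last joins chrX:100491149-100511148 with boundary 5, 720 kb apart, at 0.0797 and 0.136 against 0.264 to 1.00 (median 0.569). In each of the 3 pairs, all 14 full-length libraries were above both deletion libraries.

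The 6 boundaries leave 7 segments, of 200 to 1980 kb. Contacts within a segment, as log2 observed over expected, did not pass in any of them (adjusted p of 0.256 and above over the 23 values). Segment 1 (chrX:98831149-99151148, with Ogt, the enzyme that attaches O-linked GlcNAc to proteins) was at 0.47 and 0.43 in the deletion line and at 0.46 to 0.56 (median 0.51) in the full-length line, where 13 of 14 libraries were higher than both (exact permutation p = 0.0333). Segments 2 to 6, which hold the domains of Tsix and Xist, differed by between −0.03 and 0.02. Segment 7 (chrX:103231149-103431148, with the glycolytic gene Pgk1) differed by 0.13, at −0.16 and −0.17 against −0.43 to −0.14 (median −0.31). In the run, its full-length values were −0.14 and −0.18, on either side of the deletion libraries.

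Of the other crossing values, that of boundary 3 came next in size. It was at 0.10 and 0.08 in the deletion line, against −0.10 to 0.09 (median 0.01), with 13 of 14 full-length libraries below both (exact permutation p = 0.0333, adjusted p = 0.256). Contacts across boundary 4, the bin of which overlaps Xist and Tsix, were the most depleted, at −1.01 and −0.99 against −1.20 to −0.84 (median −1.01). Those across boundaries 1 and 2, and those that cross 2 or more boundaries, differed by less than 0.01. Across boundary 6 the deletion line was at 0.02 and 0.01, against −0.02 to 0.14 (median 0.08), below 12 of 14 full-length libraries (exact permutation p = 0.133). Within the run, the full-length values were 0.14 and 0.08. The direction there depended on distance. From 40 to 250 kb the deletion line was at −0.32 and −0.35, above 12 of 14 full-length libraries, and from 500 to 1000 kb it was at 0.14 and 0.11, below 13 of 14 (−0.55 to −0.32 and 0.14 to 0.46, exact permutation p = 0.100 and 0.0333). From 250 to 500 kb it was at 0.25 and 0.27, against 0.17 to 0.40, below 10 of 14 (exact permutation p = 0.383).

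**Figure D4:**
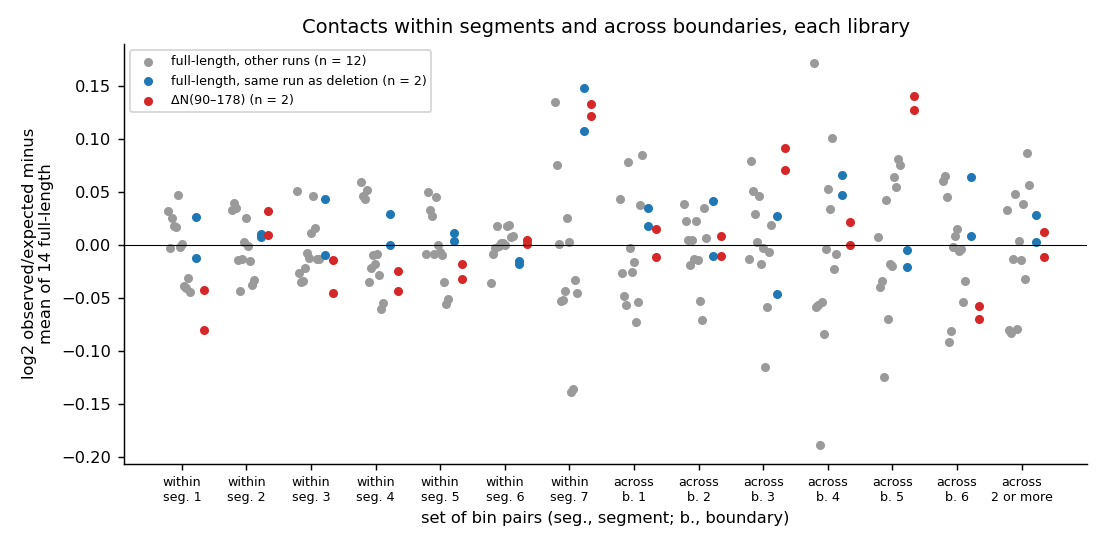
Contacts within the 7 segments and across boundaries (horizontal axis) as log2 observed over expected minus the mean of the 14 full-length libraries (vertical axis), with 1 point for each library. The ΔN(90–178) points lie above every full-length point for boundary 5 and for nearly every one at boundary 3, and in segment 7 they lie between both full-length libraries of the same run.

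Over all libraries, the decay of contacts with distance was similar in both lines. From 40 to 100 kb, log2 of the mean relative signal was 3.14 and 3.16 in the deletion line and 3.06 to 3.24 (median 3.15) in the full-length line. Beyond 2000 kb it was −2.77 and −2.78 against −2.99 to −2.05 (median −2.80). None of the 6 distance bands differed beyond the spread (exact permutation p of 0.483 to 0.983). Full-length libraries EN5C363 and EN5C364 widened these ranges. Without them, the full-length range from 100 to 250 kb narrowed to 1.89 to 1.96, above both deletion libraries (1.89 and 1.88, exact permutation p = 0.0220). From 1000 to 2000 kb it narrowed to −1.74 to −1.47, where the deletion libraries were at −1.48 and −1.47 (exact permutation p = 0.0440). Adjusted over the 23 values, both had p = 0.202. Within the run, full-length libraries were above both deletion libraries from 100 to 250 kb (1.91 and 1.92) and from 250 to 500 kb (0.92 and 0.89). They were below both from 1000 to 2000 kb (−1.52 and −1.56) and beyond 2000 kb (−2.86 and −2.89). From 40 to 100 and from 500 to 1000 kb the lines overlapped in the run.

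**Figure D5:**
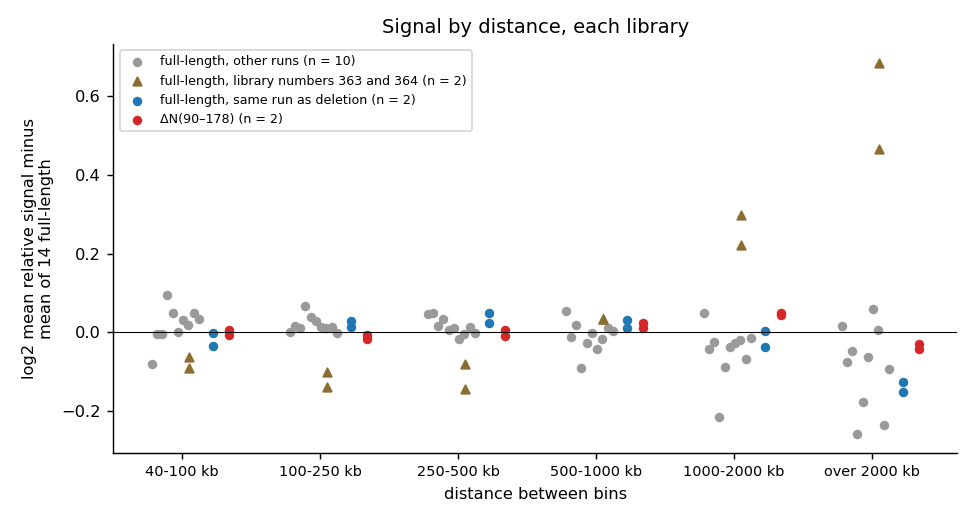
Log2 mean relative signal by distance between bins, minus the mean of the 14 full-length libraries, with 1 point for each library and triangles for full-length libraries EN5C363 and EN5C364. The ΔN(90–178) points stay within 0.05 of 0 in each band, and the triangles lie highest beyond 1000 kb.

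Contacts between bins that both hold a FLAG peak, from 100 to 1000 kb apart, exceeded the expectation in both lines. Within a segment, log2 observed over expected was 0.42 and 0.44 in the deletion line and 0.42 to 0.56 (median 0.48) in full-length cells, with 10 of 14 above both. Across boundaries it was 0.21 and 0.23, against 0.20 to 0.29 (median 0.26), with 12 of 14 above both. Neither difference passed (exact permutation p = 0.217 and 0.117). The peaks were called in full-length cells after 2 days, and occupancy in the deletion line is not analysed here.

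As CTCF peaks tend to contact each other when their motifs point towards one another, peak bins were also separated by motif; these classes were set up once the maps had been looked at. In the 20 pairs of bins with convergent motifs, contacts were highest in both lines. They were at 0.64 and 0.69 in the deletion line and at 0.63 to 1.05 (median 0.83) in full-length cells, with 13 of 14 libraries above both (difference −0.18, exact permutation p = 0.05, not adjusted). Both full-length libraries of the run were at 0.81 and 0.82. In 38 tandem pairs, contacts were at 0.48 and 0.28, against 0.26 to 0.43 (median 0.32), and in 18 divergent pairs at 0.18 and 0.20, against −0.09 to 0.33 (median 0.16). These classes did not part the lines (exact permutation p = 0.283 and 0.717), and whether they differ from the convergent pairs was not tested.

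Finally, ΔN(90–178) was set beside the deletions of the adjoining stretches, ΔN(1–89) and ΔN(179–265), with 2 libraries each from the same run, and ΔN(1–265), with 10 libraries of both clones. Mean insulation was 0.558 ± 0.0157 in ΔN(90–178), 0.488 ± 0.0157 in ΔN(1–89), 0.430 ± 0.0142 in ΔN(179–265) and 0.482 ± 0.0196 in ΔN(1–265) (SD). All libraries of the other 3 deletions lay below both of ΔN(90–178). So did both libraries of the full-length clone with low expression, EN133.6, at 0.508 ± 0.00863 (SD). Expression of the transgenes was not analysed here, and its part in this order was not tested. The difference between ΔN(90–178) and ΔN(1–265) had the smallest exact permutation p that 2 against 10 libraries allow, 0.0303 (adjusted p = 0.0536 over 23 values). In the limma fit over all transgene libraries, each against the same full-length libraries, 11 of 193 bins passed in ΔN(90–178). The number was 63 in ΔN(1–89), 77 in ΔN(179–265) and 128 in ΔN(1–265). ΔN(1–265) had 10 libraries and each other deletion 2, and more libraries let smaller differences pass. The number of ΔN(1–265) therefore cannot be set against the others. Those of ΔN(90–178), ΔN(1–89) and ΔN(179–265) rest on 2 libraries each in 1 fit, so this reason does not apply among them. They count bins past a threshold and do not measure the size of an effect.

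Compared directly, insulation of ΔN(90–178) differed from that of ΔN(179–265) in 18 of 193 bins, 13 higher and 5 lower. Against ΔN(1–89) it differed in 6 of 193, 3 in each direction. Against ΔN(1–265), with its 10 libraries, it differed in 48 of 193, 26 higher and 22 lower. Boundary 3 was among them for ΔN(179–265), where its score was 0.04 ± 0.03 (SD) against 0.32 ± 0.09, a difference of 0.28 ± 0.05 (SE, adjusted p = 9.22e-05 with limma). At boundary 5, the score of ΔN(179–265) was 0.43 ± 0.03 and that of ΔN(1–265) 0.42 ± 0.04, both lower than ΔN(90–178) at 0.62 (adjusted p = 1.07e-04 and 2.25e-07 with limma). ΔN(1–89), at 0.65 ± 0.03, did not differ from ΔN(90–178) there beyond the spread (−0.03 ± 0.04, SE, adjusted p = 0.698 with limma). In bin chrX:102711149-102731148, by contrast, ΔN(90–178) was lower than ΔN(179–265) by −0.35 ± 0.06 and than ΔN(1–265) by −0.15 ± 0.05 (SE, adjusted p = 9.22e-05 and 0.0191 with limma). Against ΔN(1–89) the difference in this bin was −0.20 ± 0.06 (SE) and did not pass (adjusted p = 0.0687 with limma).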

How the data were processed

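5C ligation products around Xist and Tsix (chromosome X, mm9, HindIII) were measured in 91 of the 161 samples, of which 16 enter the main comparison. The authors deposited raw counts of ligation between forward and reverse primers and the signal of the same matrices after iterative correction at the fragment level, which in 14 of the 16 libraries sums to 1000000 and in 2 is a forward by reverse matrix that was not rescaled. FLAG–CTCF peaks were deposited as coordinates only. The counts of 2 full-length libraries stop early and were left out of steps that start from counts, while their corrected signal was used. Intervals from depth are not given, since PCR reads carry no molecular identifiers. Libraries were checked for duplicates, and at most 6.60% of nonzero entries were equal between any of them.

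Primers with only zeros were taken as no data. Corrected signal was averaged over primer pairs in 20-kb bins, with the main diagonal and the one beside it set to the average of the latter. Insulation needed at least 50% of a 100-kb square to be measured, which left 193 of 230 bins. Single values were compared by two-sided exact permutation tests and adjusted by the Benjamini-Hochberg method over 23 values. Bins and bin pairs (mean relative signal of at least 0.1) were fitted with limma 3.58.1 in R 4.3.3 (trended empirical Bayes), adjusted over all bins or bin pairs, with a threshold of 0.05, and edgeR 4.0.16 was used on summed counts as an alternative. The insulation score, the permutation test, the iterative correction of counts and the limma and edgeR fits were tested on simulated data. Sequences and genes are those of the mm9 assembly (NCBIM37) with the annotation of GENCODE vM1. Genes named after clones or predictions were left out, and distances are to the nearest protein-coding gene kept. The 6 boundary bins are those of the study's methods. All boundaries, segments and distance bands are named, and of the bins and bin pairs those that passed, or the 3 with the smallest p where none did. Members, lists and tests were chosen with earlier results of these data known. Alternatives were other windows, boundary bins, binning, corrections, depth, subsets of libraries, pseudocounts and fits. Those without libraries EN5C363 and EN5C364, the fit of bins within the run, and all results by motif orientation were chosen after the data had been seen. Hi–C, ChIP-seq coverage and expression are not analysed here.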

Additional observations from a re-analysis of the deposited data

Results flagged for a closer look

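In the ΔN(1–265) libraries used for comparison, 8 of 69 values had a library far from the others of its group. The criterion flags about 1 in 20 groups by chance, but the 69 are not independent, since each clone was examined alone and again with the other clone, and 1 library is counted in both ways across boundary 2. In clone EN186.4 (6 libraries), contacts within segment 1 were at 0.322 in 1 library, the lowest of a range up to 0.370. In clone EN186.6 (4 libraries), 1 library was at 3.12 for signal from 40 to 100 kb (up to 3.20 in the others), 1 at −0.298 across boundary 2 (others down to −0.380) and 1 at −0.234 across boundary 6 (others up to −0.206). Over both clones (10 libraries), single libraries stood apart at 1.81 for signal from 100 to 250 kb, at −2.22 beyond 2000 kb, at 0.388 across boundary 1 and at −0.298 across boundary 2. Only groups of 4 to 10 libraries were examined in this way, which leaves out both ΔN(90–178) libraries and the 14 full-length ones.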

How the results depend on the processing

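Contacts across boundary 5 kept their sign under all 23 alternatives, and so did insulation at boundaries 5 and 6 under all 21. Most of these alternatives use a subset of the libraries or only another estimate of the spread. Such alternatives could not change these signs, since both deletion libraries lay beyond all 14 full-length libraries. The number of bins past the threshold was 11 when all transgene libraries shared the spread and 13 within the run of library numbers, against 0 with limma over all libraries. It ranged from 0 to 2 when each library was left out in turn, the 2 being those near Cypt2-ps without full-length replicate 12 (EN5C388). The number of bin pairs past the threshold was 1 on observed over expected and 1 with the shared spread, and 0 with edgeR on raw counts, where 538 had an unadjusted p under 0.05. It ranged from 0 to 3, with 3 without either deletion replicate, where the lone library is assumed to vary like the others. The difference in mean insulation turned to 0.000774 when the bin after each boundary was used, and the cause was not tested. It ranged from −0.0608 to −0.0386 with each library left out, and had an exact permutation p of 0.0190 without full-length replicate 1 (EN5C77). That of convergent motif pairs had an exact permutation p of 0.0190 without full-length replicate 13 (EN5C389).

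With replicate numbers 1 and 2 as a block, mean insulation differed by −0.00764, and limma called 0 bins and 0 bin pairs (45 and 466 with an unadjusted p under 0.05). The numbers share only a name, as the difference between replicates 1 and 2 had a correlation of −0.0533 between the lines over bins. No single value passed after adjustment under any alternative, and those near 0 changed sign often, such as contacts from 40 to 100 kb under 12 of 23 alternatives and across boundary 1 under 11. Alternatives without libraries EN5C363 and EN5C364, those of bins within the run, and those by motif were chosen after seeing the data. Depth was lowest in full-length replicate 6, at 5262254 counts.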
